A study of Mus musculus with 8 samples.

Results

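HTT ChIP-seq peaks were compared between Htt+/+ cortex treated with an antisense oligonucleotide (ASO) against Htt and untreated Htt+/+ cortex. Every peak on chromosomes 1 to 19 was placed by its coordinates alone. Peaks of the ASO and untreated lists that shared at least 1 base were merged into a region present in both files, and the remaining peaks formed ASO-only and untreated-only regions. The 39920 ASO peaks and 43435 untreated peaks gave 79655 regions, of which 3672 were in both files, 36237 were ASO only and 39746 were untreated only. The 4 ChIP libraries of the series together gave 153005 regions on these chromosomes.

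Mice were 4-month-old males, either Htt+/+ or HttQ111/+, a knock-in line that carries an expanded CAG repeat in 1 copy of Htt. ASO mice received 500 µg of a pan-huntingtin ASO into a ventricle on 1 side of the brain, and cortex of the injected side was taken 4 weeks later. The labels name no injection or control oligonucleotide for untreated mice, so the ASO and the injection cannot be told apart. Each of the 4 groups is 1 ChIP library of pooled cortex (3 mice by the labels, fewer by the study's methods), so no group has a replicate and no difference between treatments was tested.

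Huntingtin (HTT) is a large scaffold protein with roles in vesicle transport, autophagy and transcriptional regulation, and its expanded polyglutamine form causes Huntington's disease. An ASO pairs with its target transcript and directs RNase H to cut it, which lowers the protein made from that transcript. ChIP-seq recovers DNA that is held, directly or through other proteins, by the protein an antibody binds, here EPR5526 against HTT. CpG-rich promoters are open and GC-rich in most cells, and they are often over-represented in sonicated input DNA as well as in ChIP.

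To show what the classes look like in sequence, 151 bases centred on the stronger summit are printed for some of the start-site regions with the highest fold enrichment in each class, leaving out windows that hold annotated untranslated sequence. They are read from NCBIM37 (mm9) on the strand of the named gene, with each CpG in capitals. The first 3 lie in regions present in both files, near 4930453N24Rik (chr16:64770438-64770588), Sos1 (chr17:80878960-80879110) and Pank1 (chr19:34953391-34953541).
4930453N24Rik: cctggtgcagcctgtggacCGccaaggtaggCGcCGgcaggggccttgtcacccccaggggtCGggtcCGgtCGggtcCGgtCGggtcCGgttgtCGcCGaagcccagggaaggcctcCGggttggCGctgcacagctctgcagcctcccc
Sos1: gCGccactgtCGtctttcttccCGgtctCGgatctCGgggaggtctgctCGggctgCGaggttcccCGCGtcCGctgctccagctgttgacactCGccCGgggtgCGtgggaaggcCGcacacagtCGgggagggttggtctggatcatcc
Pank1: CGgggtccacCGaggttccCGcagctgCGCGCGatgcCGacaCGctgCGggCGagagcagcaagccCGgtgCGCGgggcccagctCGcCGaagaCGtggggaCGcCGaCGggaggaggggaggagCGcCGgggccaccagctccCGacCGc
The next are ASO-only regions near Igfbp2 (chr1:72871243-72871393) and Gm5069 (chr1:182261075-182261225).
Igfbp2: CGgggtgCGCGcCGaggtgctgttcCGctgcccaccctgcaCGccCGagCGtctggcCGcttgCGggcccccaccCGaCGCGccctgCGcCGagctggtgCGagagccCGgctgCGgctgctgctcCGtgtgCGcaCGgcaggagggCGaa
Gm5069: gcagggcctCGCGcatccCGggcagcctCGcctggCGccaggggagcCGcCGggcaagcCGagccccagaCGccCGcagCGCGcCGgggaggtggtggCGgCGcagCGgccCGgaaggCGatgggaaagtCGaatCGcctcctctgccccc
The last are untreated-only regions near Olfr54 (chr11:50839532-50839682) and Maml2 (chr9:13425298-13425448).
Olfr54: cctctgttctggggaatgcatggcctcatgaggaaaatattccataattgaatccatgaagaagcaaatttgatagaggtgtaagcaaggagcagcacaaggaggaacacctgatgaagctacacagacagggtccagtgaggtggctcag
Maml2: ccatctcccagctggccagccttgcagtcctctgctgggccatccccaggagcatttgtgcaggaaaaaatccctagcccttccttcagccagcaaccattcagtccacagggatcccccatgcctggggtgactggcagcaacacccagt

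The windows of both files and of the ASO-only class held 13 to 23 CpGs and 67.5% to 78.1% GC. The Olfr54 and Maml2 windows held 0 CpGs. These windows illustrate the strongest regions and are not representative of the classes, whose values follow.

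Few peaks were shared. Of the ASO peaks, 9.23% (3683 of 39920, exact 95% interval 8.94% to 9.51%) overlapped an untreated peak, and 8.49% of the untreated peaks (8.23% to 8.76%) overlapped an ASO peak. These intervals, and all others given, cover counting error only and not the spread between animals. Sharing rose with the number of ChIP reads under the summit, which was recovered from the deposited enrichment and p-value of each peak. Of peaks with at most 3 reads, 5.10% of ASO and 4.80% of untreated peaks were shared. Of peaks with at least 8 reads, 39.9% (37.9% to 41.8%) of 2446 ASO peaks and 49.3% (46.9% to 51.8%) of 1660 untreated peaks were shared with a peak of any strength in the other file.

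The one-sided classes were ordered differently by weak and strong regions. Over all regions there were 0.912 ASO-only regions for each untreated-only region (0.899 to 0.925). Among regions with at least 5 reads the ratio was 1.30 (1.25 to 1.35), with 6423 ASO-only and 4953 untreated-only regions. Among those with at least 8 reads it was 1.75 (1.61 to 1.91), with 1471 and 841 regions. The lower number of ASO-only regions was therefore found among regions of few reads, while strong one-sided regions were more numerous with ASO. The recovered depths were 1.22 ChIP reads per kb with ASO and 1.12 without, and the read cuts were not scaled for depth. The part of the depth difference in the ratios was not tested.

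Most one-sided regions stood close to the calling limit. At the genome-wide background, 2 reads sufficed for a p-value below the threshold in either library. Of the ASO-only regions, 77.6% (77.2% to 78.1%) had at most 1 read more than the fewest that pass at their own local background, as did 81.0% (80.7% to 81.4%) of the untreated-only regions. At start sites these shares were 40.3% and 48.2%. A peak of the other file lay within 1 kb of 5.64% of ASO-only and 5.21% of untreated-only regions. For most members of these classes, absence from the other file thus cannot be told apart from a difference of 2 reads or fewer.

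Regions in both files were GC-rich and lay near gene starts more often than one-sided regions. A region was counted at a start site when its midpoint was within 1 kb of the 5′ end of a protein-coding gene. This held for 26.1% of regions in both files (24.7% to 27.6%), 6.52% of ASO-only regions (6.27% to 6.78%) and 4.29% of untreated-only regions (4.10% to 4.50%). Within that distance of a start site lie 1.69% of the bases of chromosomes 1 to 19. Between genes lay 41.0% of regions in both files, 54.8% of ASO-only and 53.9% of untreated-only regions. Introns held 20.8%, 31.4% and 33.8% in the same order, exons 9.61%, 5.23% and 5.62%, and the 1 kb around gene ends 2.40%, 2.05% and 2.34%.

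The start-site share rose with the reads under the summit. The calling limit bears on this rise. At the genome-wide background 2 reads sufficed, but at 5 times that background 5 reads were needed with ASO and 4 without. More than 5 times that background was found in 56.9% of start-site regions in both files, 42.6% of ASO-only and 37% of untreated-only ones. Such regions could hardly be called at the lowest steps, and the part of this limit in the rise was not tested. Among ASO-only regions it was 1.18% at 2 reads, 1.53% at 3 reads, 4.0% at 4 reads, 17.9% at 5 to 7 reads and 61.3% (58.7% to 63.7%) at 8 or more. Among untreated-only regions it was 1.51%, 1.62%, 3.36%, 13.8% and 56.0% (52.6% to 59.4%) over the same steps. Among regions in both files it was 63.6% (60.7% to 66.4%) at 8 or more reads, against 2.51% at 3 reads. At equal reads the classes lay much closer than their overall shares. At 5 to 7 reads the intervals of the 3 classes still did not meet. Reads of a region in both files are the higher of the 2 files, while a one-sided region has a single count, so equal reads differ in kind. Only 4.06% of ASO-only and 2.12% of untreated-only regions had 8 or more reads, against 30.5% of regions in both files. In numbers, 901 ASO-only and 471 untreated-only regions with 8 or more reads were at a start site.

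**Figure D1:**
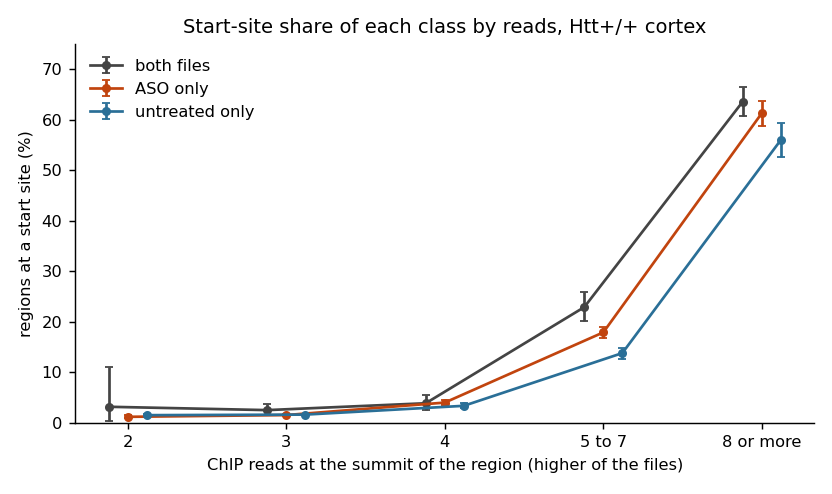
Percent of regions at a start site (y axis) by the ChIP reads at the summit (x axis, higher of the files), for regions in both files, ASO only and untreated only in Htt+/+ cortex, with exact 95% intervals as bars. All 3 classes stay below 5% up to 4 reads and reach 56.0% to 63.6% at 8 or more reads. A region on high local background needs more reads to be called.

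GC content was highest in regions in both files, and the one-sided classes lay close together. The median GC of the bases up to 150 on each side of the summit was 58.8% in regions in both files (quartiles 52.8% and 70.4%), 50.2% in ASO-only and 50.5% in untreated-only regions, against 41.9% for chromosomes 1 to 19. At start sites the medians were 73.1%, 68.4% and 66.1%, and the median observed to expected CpG ratio was 0.905, 0.810 and 0.719. Away from start sites GC was 55.5%, 49.8% and 50.2%, with CpG ratios of 0.257, 0.183 and 0.182. Windows of the same length centred on all protein-coding gene starts had a median GC of 58.5%, below the start-site regions of every class. Most of those regions lay downstream of the start, so the positions compared are not the same.

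The background that the peak caller took from input DNA moved with these values. At start sites the local background was 5.99 times the genome-wide one in regions in both files, 4.92 times in ASO-only and 3.59 times in untreated-only regions (medians). Away from start sites it was 1.23, 1.23 and 1.20 times. It was over 5 times the genome-wide background in 56.9%, 42.6% and 37% of start-site regions. Among peaks at no more than 5 times that background, the start-site shares were 11.7%, 4.10% and 2.94%, in the same order. Local background above 50 times the genome-wide one, as over repeated sequence, was found in 32 regions in both files, 4 ASO-only and 0 untreated-only regions. The ASO-only regions with the most reads were of this kind, near Gm10722 (58 reads), Gm10718 (42 reads), Sfi1 (41 reads) and Gm10719 (36 reads), at 54.1 to 81.1 times the genome-wide background. The untreated-only regions with the most reads also lay on high background, at 31.1 to 40.8 times the genome-wide one. They were in or near Sfi1 (32 and 31 reads) and Gm10106 (29 reads), and between genes (31 reads). The regions of both classes were named after their values were seen.

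Start-site regions lay mostly downstream of the start. The start is the 5′ end of the whole gene model, so a region at the start of a shorter transcript counts as downstream. Of those in both files, 87.6% (85.4% to 89.6%) had their midpoint at or after the start site, with 34.7% in the first 250 bases and 34.9% in the next 250. The median position was 266 bases into the gene, against 197 bases for ASO-only and 211 bases for untreated-only start-site regions. Of the ASO-only regions 76.6% (74.8% to 78.3%) and of the untreated-only regions 73.8% (71.6% to 75.9%) lay at or after the start. A region overlapped the start site itself in 10%, 1.86% and 0.971% of all regions in both files, ASO only and untreated only.

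**Figure D2:**
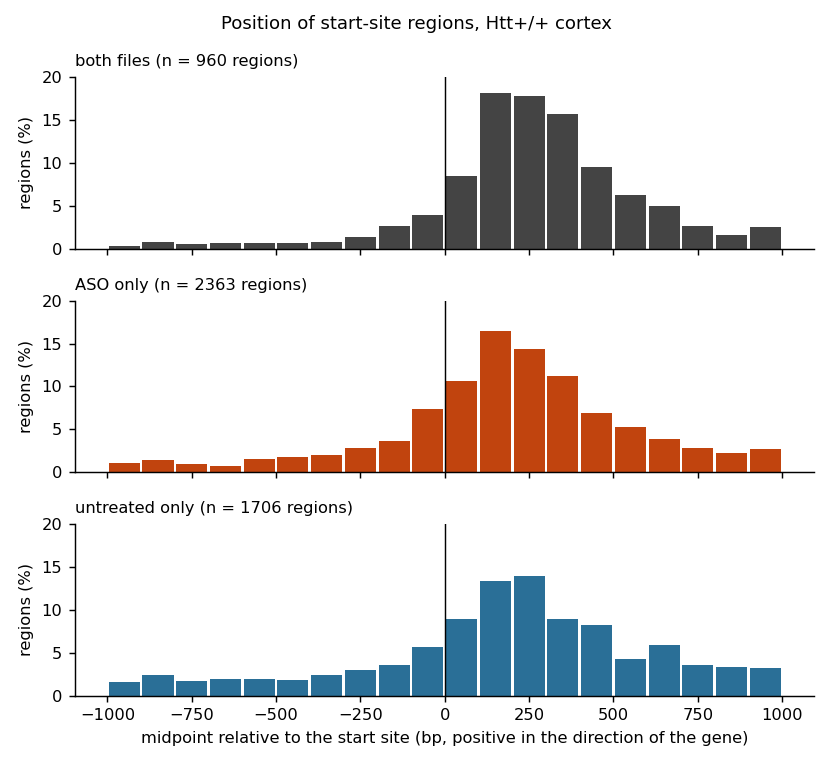
Position of the midpoint of start-site regions relative to the start site (x axis, bp, positive in the direction of transcription) as percent of the start-site regions of each class (y axis) in bins of 100 bp. The highest bins lie within 500 bp after the start in each of the 3 classes, and the both-files class (n = 960) is the least spread upstream.

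Widths differed by little. The narrowest width the caller allowed, 224 bp with ASO and 230 bp without, was also the median of each one-sided class, and was the width of 65.2% of ASO-only and 64.6% of untreated-only peaks. In regions in both files the median was 266 bp in either library, and at start sites 332 bp with ASO and 316 bp without.

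Short sequence motifs were searched on both strands of the summit windows. The GC box GGGCGG, which Sp1-family factors bind, was in 30.4% of regions in both files, 10% of ASO-only and 7.95% of untreated-only regions. At start sites it was in 65.8%, 55.4% and 46.5%, against 46.2% of windows of equal length centred on all gene starts. The CCAAT box was in 9.48%, 19.1% and 22.4% of start-site regions, against 35.5% of all gene-start windows. The triplet repeat CAGCAGCAG was in 7.14% of regions in both files, 3.68% of ASO-only and 3.11% of untreated-only regions (2.96% of gene-start windows). The repeat CACACACA had the opposite order, with 4.03%, 6.76% and 7.93%. CCGGAAG, the core of ETS factor sites, was in 6.98%, 7.70% and 6.80% of start-site regions, below the 11.4% of all gene-start windows. AAGATGGC, part of YY1 sites, was in 2.40%, 2.58% and 2.64% of them (3.83% of gene-start windows), GCGCATGC of NRF1 in 2.08%, 1.48% and 0.938% (3.16%), and TGACGTCA, the cAMP response element, in 0.833%, 0.931% and 0.352% (2.2%). CACGTG, the E-box, was in 6.15%, 6.31% and 5.69% (7.31%), and TGANTCA, the AP-1 site, in 2.81%, 3.34% and 3.75% (5.98%). The gene-start windows are centred on the start, while start-site regions had median midpoints 266, 197 and 211 bases after it. Shares below those of gene-start windows therefore compare unlike positions. GC content also differs between the classes, and the part of position or GC in these shares was not tested.

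Strength in the regions shared by both files was nearly level. These regions were kept because both libraries passed the calling limit, and regions called in only 1 library are left out. The values therefore do not measure the effect of the ASO on strength over all regions. The log2 ratio of fold enrichment, ASO over untreated, had a median of -0.08 (quartiles -0.32 and 0.33) over the 3672 regions. It was below 0 in 54.5% of them (52.9% to 56.1%). At the 960 start-site regions the median was 0.02 and 47.2% were below 0 (44.0% to 50.4%), and at the other 2712 regions the median was -0.09 and 57.1% were below 0 (55.2% to 59.0%). Summed over all shared regions there were 23671 summit reads with ASO and 21976 without, a ratio of 0.992 (0.974 to 1.01) after scaling each library by its own factor, and at start sites 1.01 (0.976 to 1.04). Both intervals held 1.

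In 1114 shared regions both libraries had the same number of reads, in 1557 the ASO library had more and in 1001 fewer. Equal reads give a lower scaled value with ASO, whose scaling factor was smaller (2.9742 against 3.2288). Shares below 0 therefore include ties in reads, and the part of ties in them was not tested. A fold enrichment at least 1.5-fold higher with ASO was found in 415 shared regions (11.3%), and one at least 1.5-fold lower in 511 (13.9%). At start sites 145 regions were higher (15.1%) and 113 lower (11.8%), and elsewhere 270 were higher (9.96%) and 398 lower (14.7%). With shared regions restricted to peaks of 5 or more reads in both files, 47.5% were lower with ASO (44.9% to 50.1%).

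**Figure D3:**
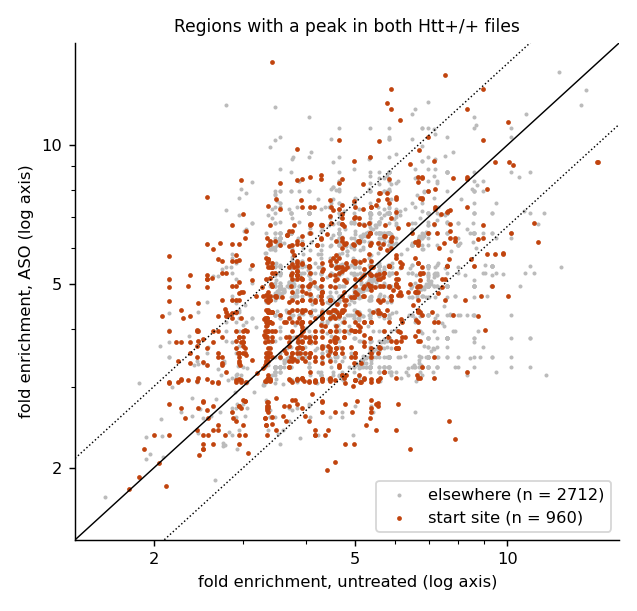
Fold enrichment of the 3672 regions in both Htt+/+ files with ASO (y axis, log scale) against untreated (x axis, log scale), with start-site regions in orange and others in grey, the line of equality solid and 1.5-fold differences dotted. Points form rows and columns because few whole reads are possible, and start-site regions spread on both sides of the line.

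The shared start-site regions with the highest enrichment in the weaker library lay near the following genes. At 4930453N24Rik, an uncharacterised gene, the enrichment was 11.2 with ASO and 10 without, from 11 and 9 reads. At Fam185a it was 13.2 and 8.94 (13 and 8 reads), and at Exoc3l2 10.2 and 8.94 (10 and 8 reads). At Mrpl53, a mitochondrial ribosomal protein gene, it was 9.21 and 9.45, from 9 and 8 reads.
At Irf2bp2, which encodes a transcriptional corepressor, it was 9.06 and 10.2 from 15 and 16 reads, and at BC024659 9.17 and 10.1 from 12 and 10 reads. At Sos1, a guanine nucleotide exchange factor for Ras, it was 9.21 and 15.1 from 9 and 14 reads. At Pank1, a pantothenate kinase of coenzyme A synthesis, it was 9.21 and 15.1 from 9 and 13 reads. The ratio of scaled reads ranged from 0.592 at Sos1 (0.226 to 1.47) to 1.5 at Fam185a (0.575 to 4.17), and every one of these 8 intervals held 1.

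The extremes of the ratio rested on few reads as well. The highest ASO to untreated ratio at a start site was at Klhl11, an adaptor of an E3 ubiquitin ligase, with an enrichment of 15.1 from 15 reads against 3.43 from 5 reads (log2 ratio 2.14). The ratio of its scaled reads was 2.76 (0.955 to 9.72). Next came Atpaf1, an assembly factor of the mitochondrial ATP synthase, with 7.73 and 2.55, Fam160b1 with 8.42 and 2.98, and Lrig1, a negative regulator of growth factor receptors, with 5.75 and 2.14. Among the lowest ratios were those at Ccdc92 (2.31 and 7.89, log2 ratio -1.77), the palmitoyltransferase gene Zdhhc7 (2.52 and 7.67) and Mocs3 of molybdenum cofactor synthesis (2.2 and 6.41). At Ccdc92 the reads were 9 and 10, which shows how far the ratio of enrichments, each divided by the local background at its own summit, can lie from the ratio of reads. The interval of the scaled read ratio held 1 at each of these genes.

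Strong ASO-only start-site regions included Igfbp2, which encodes an insulin-like growth factor binding protein, with an enrichment of 13.2 from 13 reads. Lsm12 had 11.7 (8 reads), Gm5069 11.3 (12 reads) and AY074887 11.2 (11 reads). The region at AY074887 is also at the start of Psma4, a proteasome subunit. Avpr1a, the vasopressin receptor 1A, had 10.3 (7 reads), and Popdc2 10.1 (6 reads). Of these 6 regions, those at Igfbp2, Lsm12, AY074887 and Avpr1a also held a peak in the untreated HttQ111/+ list, and only that at Avpr1a held one in the HttQ111/+ ASO list.

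Strong untreated-only start-site regions included Map2k5, a MAP kinase kinase, with an enrichment of 10.8 from 10 reads at 74.1% GC, and Maml2, a Notch coactivator, also had 10.8 from 10 reads at 59.8% GC. Olfr54 had 11.1, Cldn18 10.2 and Gltscr1 10.1, each from 6 reads. The regions at Maml2 and Map2k5 held a peak in the untreated HttQ111/+ list.

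At gene level, 4.81% of the 21418 protein-coding genes of chromosomes 1 to 19 had a start-site region in both files (1031 genes), 11.7% had an ASO-only one (2508 genes) and 8.31% an untreated-only one (1780 genes). An ASO-only and an untreated-only region met at the same start site in 135 genes. These are 5.38% of the ASO-only genes, where 8.31% of all genes had an untreated-only region. They are 7.58% of the untreated-only genes, where 11.7% of all genes had an ASO-only region. Overlapping peaks are placed in the both-files class by the rule, which lowers the count of 135. Counting any class, 3487 of all 21418 genes had a start-site region from the ASO file and 2765 one from the untreated file. Regions from each file were found at 1164 genes, which is 33.4% of the former and 42.1% of the latter. These shares are over start-site peaks, which have more reads than peaks elsewhere.

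Of the genes named by the study, Htt, Ppp1r1b, Sox11 and Foxp2 each had 1 start-site region, and Pde10a and Rgs9 had none. Of all protein-coding genes, 23.8% had one of any class. The paper described Ppp1r1b, Pde10a and Rgs9 from broad HTT peaks in striatum, and Sox11 and Foxp2 from the histone mark H3K27me3. The counts here are of narrow HTT peaks in cortex and are not a check of those results. Counts over a gene and its flanks are given beside the number that the density of the class over chromosomes 1 to 19 would place in that length. Htt itself (chr5:35104389-35255183, plus strand) had no region in both files, 4 ASO-only and 4 untreated-only regions from 20 kb upstream to 1 kb past the gene, where density gives 2.52 and 2.76. One was at its start site, an untreated-only region at chr5:35104682-35104995 with 5 reads and an enrichment of 2.45, and its other 7 regions had 2 to 5 reads. No Htt region held a peak in either HttQ111/+ list.
Ppp1r1b, which encodes the dopamine-regulated phosphoprotein DARPP-32, had an ASO-only region at its start with 9 reads and an enrichment of 3.09, which also held a peak in the untreated HttQ111/+ list. A region in both files had its midpoint at position -14123 relative to its start, with 10 reads with ASO and 8 without. In all Ppp1r1b had 1 region in both files, 3 ASO-only and 0 untreated-only regions, against 0.0451, 0.445 and 0.489 by density, in a window that also holds the start of Neurod2. Pde10a, a striatal phosphodiesterase, had 1 region in both files within an exon (10 and 6 reads, enrichment 5.61 and 2.92), 6 ASO-only and 11 untreated-only regions (7.07 and 7.75 by density), none at its start site.
Rgs9, a regulator of G-protein signalling, had 3 ASO-only and 3 untreated-only regions of 2 to 4 reads (1.37 and 1.51 by density). Sox11, a neuronal transcription factor, had a single ASO-only region, at its start (7 reads, enrichment 3.55), where density gives 0.337. Foxp2, a forkhead transcription factor, had an untreated-only region at its start (5 reads, enrichment 4.86) and otherwise 2 ASO-only and 3 untreated-only regions of 3 reads each, in all 2 and 4 against 8.23 and 9.03 by density.

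Groups of genes were counted by start-site regions, beside the 4.81% (both files), 11.7% (ASO only) and 8.31% (untreated only) of all genes. Of 24 genes for HTT and its protein partners, 0 had a region in both files, which allows a share of up to 12.5% (3 counts of the list, as beside every count of 0). ASO-only regions were at 4 of them, among which were Rest (5.16), the palmitoyltransferase Zdhhc17 (3.82) and the Polycomb gene Eed (3.12), where values in parentheses are fold enrichments. Untreated-only regions were at Sp1 (5.85) and Htt (2.45). Of 20 striatal projection neuron genes, 0 had a region in both files (up to 15.0%), 1 an ASO-only region (Ppp1r1b) and 4 an untreated-only one, Drd2 (5.33), Foxp2 (4.86), Bcl11b (3.43) and Rasgrp2 (2.62).

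Of 23 immediate early genes, which respond to neuronal activity, 3 had a region in both files, Egr4 (4.72), Ier5 (4.66, up to 17 reads) and Dusp1 (2.98). A further ASO-only region was at 3 of the list, Egr2 (6.94), Egr4 (4.63) and Ier2 (3.17), and an untreated-only region was at Npas4 (4.47) and Nr4a3 (3.35), 8 reads each. The shares of 13.0%, 13.0% and 8.70% rest on too few genes to stand apart from all genes.

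Start-site regions were counted at markers of neuronal and glial cells, without a test between the lists. Of all protein-coding genes, 23.8% had one of any class. Of 16 excitatory neuron markers 7 had one, among others in both files at the zinc transporter Slc30a3 (5.59) and at Bhlhe22 (5.34), ASO only at Tbr1, Slc17a7 and Neurod2 (2.73 to 5.0), and untreated only at Slc30a3 (3.31) and Cux2 (2.24). Of 16 inhibitory neuron markers 9 had one, none in both files (up to 18.8%), with 5 ASO only, led by Sp9 (7.96) and Adarb2 (7.11), and 4 untreated only, Pvalb (7.87), Lhx6 (6.01), Dlx1 (4.47) and Dlx2 (4.35). Oligodendrocyte lineage genes had 2 of 13, Olig1 (4.32) and Pdgfra (4.28), both in both files. Of 12 astrocyte markers 2 had an ASO-only region, Sox9 (3.97) and Slc1a3 (3.47). Of 14 microglia markers only Cd68 (3.43) and of 10 endothelial markers only Kdr (6.17) had one, both untreated only. The chromatin is from bulk cortex, so these counts do not assign a peak to a cell type.

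Among neuronal function genes, ASO-only regions were at 18 of 91 potassium channel genes (19.8%, 12.2% to 29.4%), led by Kcnv2 (6.77) and Kcnf1 (6.34), and untreated-only regions at 5 (5.49%, 1.81% to 12.4%), led by Kcnk6 (6.60). Another 8 (8.79%) had a region in both files, led by Kcng3 (8.43) and Kcnj8 (7.69). The ASO-only interval lay just above the 11.7% of all genes. The list is 1 of 22 described, and this was not tested. Voltage-gated calcium and sodium channels had 2, 6 and 2 of 38 (both, ASO only, untreated only), with Scn2b (8.04) the highest ASO-only and Cacna2d1 (5.78, 14 reads) the highest untreated-only member.
Glutamate and GABA receptors had 4, 7 and 7 of 41, with the NMDA receptor subunit Grin1 (8.22) in both files, Grm5 (6.45) ASO only and Grm2 (7.60) untreated only. Synaptic adhesion, scaffold and vesicle genes had 5, 11 and 6 of 66, with Vamp3 (6.58, 16 reads), Shank3 (6.36) and Dlgap4 (4.69, 17 reads) in both files.

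Housekeeping and regulatory genes were counted next. Chromatin regulators had 4, 12 and 15 of 88, and the untreated-only share of 17.0% (9.87% to 26.6%) lay above the 8.31% of all genes, again without a test. They included the chromatin remodeller Smarca5 (5.05, 12 reads) in both files, the histone demethylase Kdm2a (5.52, 14 reads) ASO only and Kdm5b (5.11, 14 reads) untreated only. RNA polymerase II and splicing genes had 5, 8 and 6 of 61, proteasome genes 3, 7 and 6 of 47, and respiratory chain genes 2, 11 and 4 of 79. Ribosomal protein genes had 3, 13 and 10 of 72, with Rpl32 (6.66) in both files, and histone genes 2, 9 and 5 of 67, where neighbouring genes share a region. Hox genes had 3, 6 and 2 of 39, led by Hoxd10 (6.79) in both files and Hoxc12 (7.69) ASO only.

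Large gene families were counted in the same way. Zinc finger Zfp genes had 15, 30 and 26 of 353, with an ASO-only share of 8.50% (5.81% to 11.9%), an interval that holds the share of all genes. Olfactory receptor genes, best known for expression in the nose, had 6, 47 and 46 of 1081 (0.555%, 4.35% and 4.26%), led by Olfr270 (10.4 from 6 reads) in both files and Olfr54 (11.1) untreated only. With 4 reads each, the ASO-only regions at Olfr312, Olfr341, Olfr393 and Olfr632 all had the same enrichment of 7.11. Both one-sided shares of this family lay under those of all genes.

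**Figure D4:**
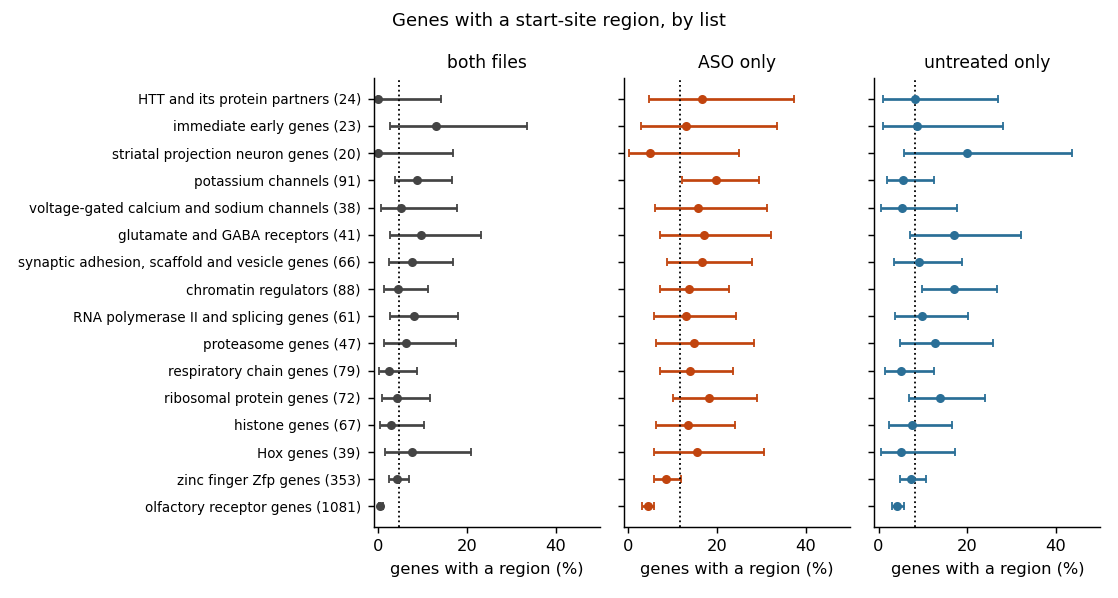
Percent of the genes of each list with 20 or more genes (list size in parentheses) that have a start-site region in both files, ASO only or untreated only (x axis), with exact 95% intervals, and the share of all protein-coding genes as a dotted line at 4.81%, 11.7% and 8.31%. Most intervals include the line, and olfactory receptor genes lie below it in every class.

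The gene bodies with most regions in both files held a small number of the 3672. The annotated span of Gm20388 held 23 of them, but this model covers 4435 kb and many other genes, 8 of whose starts hold such a region. Sfi1, a centrosome protein gene of 61.6 kb with repeated sequence around it, held 15, at up to 67.6 times the genome-wide background. Fgfr2, given a span of 3009 kb in this annotation, held 9, Gm2792 5 and Itgad 4.

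The HttQ111/+ lists were used only to ask whether the Htt+/+ classes came back. ASO-only regions overlapped a HttQ111/+ ASO peak in 4.61% of cases (4.40% to 4.84%) and a HttQ111/+ untreated peak in 8.06% (7.78% to 8.35%). Untreated-only regions did so in 4.12% (3.93% to 4.32%) and 7.97% (7.71% to 8.24%). The class was thus recovered about as often from either side, and both sides met the untreated list more than the ASO list of the other genotype.

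Strong regions showed this most. With 8 or more reads, ASO-only regions recurred in 4.42% (3.43% to 5.60%) in the HttQ111/+ ASO list and in 39.8% (37.3% to 42.4%) in the HttQ111/+ untreated list. Untreated-only regions of that strength recurred in 5.11% (3.72% to 6.83%) and 47.6% (44.1% to 51.0%), and regions in both files in 15.3% (13.2% to 17.5%) and 72.0% (69.3% to 74.6%). For regions in both files, the reads are those of the higher file. The HttQ111/+ ASO list stood apart, with 513 peaks of 8 or more reads on these chromosomes against 1660 to 2446 in the other 3 lists, although its recovered depth of 1.36 ChIP reads per kb was the highest. Recurrence in it changed little with reads in the one-sided classes. Strong regions that were ASO only in Htt+/+ cortex were therefore found more often in the untreated than in the ASO list of HttQ111/+ cortex.

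**Figure D5:**
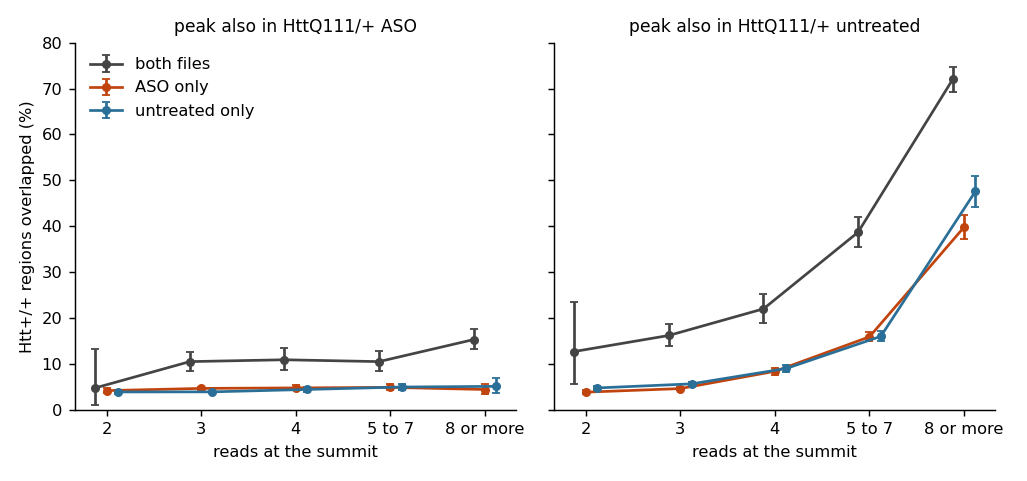
Percent of Htt+/+ regions overlapping a peak of the HttQ111/+ ASO list (left) or the HttQ111/+ untreated list (right), by reads at the summit (x axis) and class, with exact 95% intervals. On the right the share of ASO-only regions climbs from 3.84% to 39.8% and that of untreated-only regions from 4.76% to 47.6%, and on the left the one-sided classes stay between 3.89% and 5.11%.

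At start sites, regions of either one-sided class recurred more often in the untreated than in the ASO list of HttQ111/+ cortex. Of 2363 ASO-only start-site regions, 63 (2.67%) recurred in the HttQ111/+ ASO list and not in the untreated one, and 638 (27.0%) did the reverse. The strongest of the 63 were at Eif2b3, a subunit of a translation initiation factor (9.31 from 7 reads and 8.34 from 9 reads in HttQ111/+ ASO), and at Clec18a, Rps6 and Orm3 with 4 reads each in Htt+/+. Of 1706 untreated-only start-site regions, 482 (28.3%) recurred in the HttQ111/+ untreated list and not in the ASO one, and 50 (2.93%) did the reverse. The strongest of the 482 were at Zfp820 (9.34 from 5 reads and 8.06 from 4 reads), Zfp871 (7.87 and 9.21), Crebzf (9.42 from 12 reads and 7.80 from 9 reads) and Sall4 (7.95 from 12 reads and 7.35 from 8 reads). Crebzf encodes a leucine zipper factor of the unfolded protein response and Sall4 a zinc finger factor of stem cells.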

How the data were processed

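HTT ChIP-seq of mouse cortex gave 4 peak lists (8 samples with the inputs, which were not analysed here), 1 for each group. Per the labels, the authors used bcl2fastq 2.17, HISAT2 and MACS2 and the mm9 build. The methods name another build, but 28.5% of regions in both files lay within 1 kb of the start or the end of a coding gene in NCBIM37 and 5.31% by the GRCm38 positions of RefSeq genes, so mm9 was used with GENCODE vM1. The methods describe merged inputs as the control and libraries brought to 1 size. The recovered ChIP depths were not level, from 1.10 reads per kb in HttQ111/+ untreated to 1.36 in HttQ111/+ ASO. The deposited files give for each peak a fold enrichment ratio, −log10 p-values and q-values and a score, all made by the authors.

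Whole reads at each summit were recovered from the deposited fold enrichment and −log10 p-value with 1 scaling factor a library (2.9742 with ASO, 3.2288 untreated), which matched 100.0% of peaks within 0.01. Input background was 3.63 reads per kb. Of the Htt+/+ peaks, 79.4% with ASO and 84.8% without had 2 to 4 reads.

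Members, lists and named genes were chosen with earlier results of these data known. Named were the study's genes, start-site regions ranked by fold enrichment (8 in both files, 6 on each side), by its ratio (4 at each end) or by recurrence (4 on each side), the 5 genes with most regions in both files, and the strongest members of each list. GC and motifs used the 150 bases on each side of the stronger summit. Intervals are exact binomial, and limits beside a count of 0 are 3 counts of the total. Scripts were tested on simulated data, with Python 3.11.15, numpy 2.4.6, pandas 2.3.3 and scipy 1.17.1. Artefact region lists were not used here, and some named genes and 1 sequence are not reported here.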

Additional observations from a re-analysis of the deposited data

Results flagged for a closer look

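The start-site share of all peaks on chromosomes 1 to 19 differed in opposite directions between the ASO and untreated lists of the 2 genotypes. In Htt+/+ cortex it was 8.33% of ASO peaks and 6.16% of untreated peaks, a difference of 2.17 percentage points, and in HttQ111/+ cortex 2.04% and 8.21%, a difference of -6.17 percentage points. The HttQ111/+ ASO list had 513 peaks of 8 or more reads, against 1660 to 2446 in the other lists. In the Htt+/+ classes the start-site share rose with reads, and the part of this in the difference was not tested. No test compares the genotypes here, since a group is 1 library.

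Peaks outside chromosomes 1 to 19 were not part of the comparison. There were 1403 of them with ASO, of which 799 were on chromosome X and 24 on chromosome Y, and 1229 without, of which 667 were on X and 23 on Y.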

How the results depend on the processing

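No paired analysis was possible because each group held 1 library, and for the same reason no replicate was left out. Of 100 values of 11 results under alternatives, 28 stayed within the counting interval of the reported value, 68 moved out of it and 4 fell on the other side of even. Among the last, the shares of regions lower with ASO had intervals that held an even split. Values in each sentence follow 1 order, with ASO-only named before untreated-only regions. The cause of these shifts was not tested, except that stricter cuts leave fewer and stronger peaks.

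The share of ASO peaks in both files was 6.16% with a reciprocal overlap of 50%, 8.57% with summits within 250 bp, 14.5% when a peak of the other file within 1 kb sufficed, 18.1% with 5 or more reads in both files, 27.3% with 8 or more reads, and 7.12% with a local background of at most 5 times the genome-wide one. The share of untreated peaks was 5.66%, 7.89%, 13.4%, 22.6%, 40.2% and 6.45% under the same settings. The ratio of ASO-only to untreated-only regions was 0.942 at q below 0.01 and 0.898 at low background, and turned to 1.31 with 5 or more reads and 1.79 with 8 or more.

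The start-site share of regions in both files was 30.7% at q below 0.01, 29.0% with reciprocal overlap, 20.6% within 1 kb, 57.3% with 5 or more reads, 65.2% with 8 or more and 11.7% at low background. For ASO-only regions it was 7.67%, 6.98%, 27.1%, 61.2% and 4.10% (the 1 kb rule aside), and for untreated-only regions 5.09%, 4.79%, 3.99%, 20.6%, 56.8% and 2.94%. When the region had to overlap the start site the shares were 10%, 1.86% and 0.971%, within 3 kb 31.4%, 9.96% and 8.31%, and with the start sites of all transcripts 30.9%, 8.99% and 6.91%. Under each of these settings the class in both files had the highest share and the untreated-only class the lowest.

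The share of shared regions lower with ASO was 52.3% after division by each file's median, 58.5% by −log10 q, 58.3% by reads per depth and 57.4% at low background. By reads per depth, the 1114 regions with equal reads all counted as lower with ASO, whose scaling factor was smaller (2.9742 against 3.2288). The share was 47.5% with 5 or more reads (44.9% to 50.1%) and 49.9% with 8 or more (46.1% to 53.8%). Both intervals held an even split, so a majority lower with ASO was found only with regions of few reads included.

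Recurrence of ASO-only regions in the HttQ111/+ ASO list was 3.89% at q below 0.01, 2.75% with reciprocal overlap, 4.13% by summits, 8.43% within 1 kb, 3.43% with 5 or more reads and 3.54% with 8 or more, and that of untreated-only regions 3.48%, 2.30%, 3.66%, 8.11%, 3.71% and 4.53%. In the HttQ111/+ untreated list, ASO-only regions recurred in 8.61%, 5.75%, 12.2%, 16.2%, 23.5% and 6.30% (q, reciprocal, 1 kb, 5 reads, 8 reads, low background), and untreated-only regions in 5.44%, 7.60%, 13.1%, 16.1%, 31.1% and 6.71% (reciprocal, summits, 1 kb, 5 reads, 8 reads, low background). The settings of 8 or more reads and of low background were chosen after seeing the data, and the read cut applied to both lists. Depth limits every class, since 2 reads can make a peak.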
